A study of Homo sapiens with 8 samples.

Results

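The genes described here handle iron or respond to it: the ferritin chains FTH1 and FTL, the transferrin receptor TFRC, the exporter SLC40A1, the iron regulatory proteins ACO1 and IREB2, the ferritin receptor NCOA4, the importer SLC11A2 and the haem enzymes ALAS1 and FECH. They were chosen by symbol, with no measured value in the rule but with earlier results of these data known. They are 10 of the 78932 gene IDs in the count table. All 10 were found, and 9 passed the filter on low counts that left 24289 genes for testing. SLC40A1 did not pass and is described by its counts alone.

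The study sequenced RNA from sucrose gradients of human cells labelled as the acute myeloid leukaemia lines Molm13 and U937, with or without a lentiviral vector for OGFOD1. OGFOD1 is a prolyl hydroxylase of a ribosomal protein that uses iron and 2-oxoglutarate. Cells labelled OGFOD1 OE (overexpression) were compared with cells labelled control, whose library names carry "Scr", a tag the labels do not explain. All cells grew in the same serum-containing medium and were treated with cycloheximide, which holds ribosomes on mRNA, before lysis. Each gradient gave a light pool (free ribonucleoproteins, monosomes and disomes) and a heavy pool (fractions with 3 or more ribosomes). There was 1 gradient for each line and genotype label, so each of the 4 groups, a pool of cells labelled control or OE, holds 2 libraries, 1 per line label. Nothing in the labels says whether the OE cells were a clone or a pool of transduced cells, or whether the gradients were separate cultures. P-values therefore measure the spread between these libraries that is left after group and line label are fitted. The pools of a gradient share their cells.

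Cells balance iron largely after transcription. When iron is scarce, the iron regulatory proteins bind a hairpin, the iron-responsive element, in target mRNAs: in the 5′ UTR (untranslated region) it blocks the start of translation, as in ferritin mRNA, and in the 3′ UTR of the transferrin receptor it protects the mRNA from decay. When iron is plentiful, IRP1 (the product of ACO1) takes up an iron-sulphur cluster and acts as an aconitase, while IRP2 (the product of IREB2) is degraded. An mRNA held back from translation is found in free ribonucleoprotein fractions, which here lie in the light pool. That pool also holds mRNA on monosomes and disomes, and the libraries do not tell these apart.

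The hairpins of the mRNAs on which the results turn are printed first, because ferritin and TFRC carry them at opposite ends of the message. They were read from GENCODE 29 transcripts on GRCh38 and are given 5′ to 3′ as DNA. Capitals mark the bulged C and the hexaloop that begins with CAGTG. The ferritin heavy chain has its site in the 5′ UTR at chr11:61967574-61967602 (minus strand), the light chain at chr19:48965335-48965363 (plus strand), and the exporter SLC40A1 at chr2:189580661-189580689 (minus strand).
FTH1: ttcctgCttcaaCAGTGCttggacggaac
FTL: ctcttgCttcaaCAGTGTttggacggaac
SLC40A1: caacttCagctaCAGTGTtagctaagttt
The FTH1 and FTL sites were identical at 26 of 29 bases. All 3 sites pair at 5 of 5 positions between the bulged C and the loop.

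In TFRC the search found 4 sites in the 3′ UTR on the minus strand, at chr3:196050979-196051007, chr3:196050575-196050603, chr3:196050510-196050538 and chr3:196050463-196050491, in the order of the transcript. SLC11A2 has 1 site in a 3′ UTR, at chr12:50988269-50988297 (minus strand).
TFRC site 1: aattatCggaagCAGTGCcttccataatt
TFRC site 2: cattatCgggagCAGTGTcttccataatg
TFRC site 3: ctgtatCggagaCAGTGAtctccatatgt
TFRC site 4: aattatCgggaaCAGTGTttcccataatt
SLC11A2: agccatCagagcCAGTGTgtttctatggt
The TFRC sites each had 5 of 5 stem pairs, and the SLC11A2 site had 4 of 5. The search took a C, any 5 bases, CAGTG and any base on the transcript strand, with at least 4 of 5 stem pairs (G-U pairs allowed) between those 5 bases and the bases after the loop. The letters alone were found in the 5′ UTR of 14.1% of 19011 genes and in the 3′ UTR of 36.9% of 19362 genes. With the pairs required, the shares were 1.3% and 4.66%. ACO1 and IREB2 each had 1 such match in a 3′ UTR with 4 of 5 pairs, and NCOA4, ALAS1 and FECH had none. A match describes the letters and is not evidence of binding.

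Totals ranged from 25741930 to 89373133 counts per library, with 27392 to 33915 genes counted at least once. The overexpressed gene went against its label: OGFOD1 was measured at 33.0, 44.4, 49.8 and 60.2 CPM (counts put on a per-library scale here, by edgeR's TMM) in the libraries labelled control, and at 10.1, 12.4, 16.7 and 25.3 CPM in those labelled OE. The difference over both pools was -1.60 on the log2 scale (SE 0.30, adjusted p = 0.0178 by edgeR's quasi-likelihood test). Directions below are therefore those of libraries labelled OE; whether the genotype labels were exchanged was not tested, and an exchange would turn the sign of every OE minus control value. With all libraries and the filter, edgeR called 0 of 24289 genes between the line labels (2862 at an unadjusted p under 0.05; DESeq2 called 303 and limma voom 1). Without the filter it called 412, and without 1 library 0 to 131: 116 and 121 without the Molm13 control light and OE light libraries, and 114 and 131 without the U937 ones. Summed markers of KMT2A-rearranged leukaemia, the type MOLM-13 comes from, ranged from 289 to 495 CPM under the Molm13 label and from 354 to 483 CPM under the U937 label. Whether this list can tell the lines apart was not tested. Of 15 myeloid markers 13 reached 1 CPM in every library, while CD14 stayed at or below 0.380 CPM and CSF2RA was at 0 CPM throughout. The 15 markers summed to 2389 to 12517 CPM in the light and 11604 to 24090 CPM in the heavy libraries. The part of this in the differences between pools was not tested. Of 12 erythroid and megakaryocyte markers only EPOR reached 1 CPM (14.1 to 55.2 CPM), and haemoglobin genes and AHSP were at or near 0. The 7 lymphoid markers summed to 3.19 to 36.5 CPM in the control and 18.02 to 125 CPM in the OE libraries, with 2 to 4 of them at 1 CPM. CD3D ranged from 1.40 to 120 CPM, while CD3E, CD2 and MS4A1 were at or near 0. The Molm13 control light library stood apart: mitochondrially encoded genes took 2.49% of its counts, against 19.8% to 23.3% in the other light libraries and 0.36% to 0.941% in the heavy ones.

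Per kilobase of exon, ferritin mRNA exceeded all other members. FTL had a median over the 8 libraries of 5679 CPM per kb (1766 to 11218), and FTH1 of 390 CPM per kb (74.8 to 1702). ALAS1 (29.8, range 11.4 to 51.2), TFRC (20.4, range 11.97 to 60.4) and NCOA4 (18.0, range 11.1 to 53.4) came next and overlapped over most of their ranges. IREB2 had a median of 5.06 CPM per kb (2.69 to 9.66), whereas FECH (1.37), ACO1 (0.989) and SLC11A2 (0.704) lay close to each other with overlapping ranges. The ranges did not overlap between FTL and FTH1, FTH1 and ALAS1, NCOA4 and IREB2, or IREB2 and FECH. They overlapped between the other neighbours, apart from SLC40A1, which lay lowest at 0.069 CPM per kb or less.

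**Figure D1:**
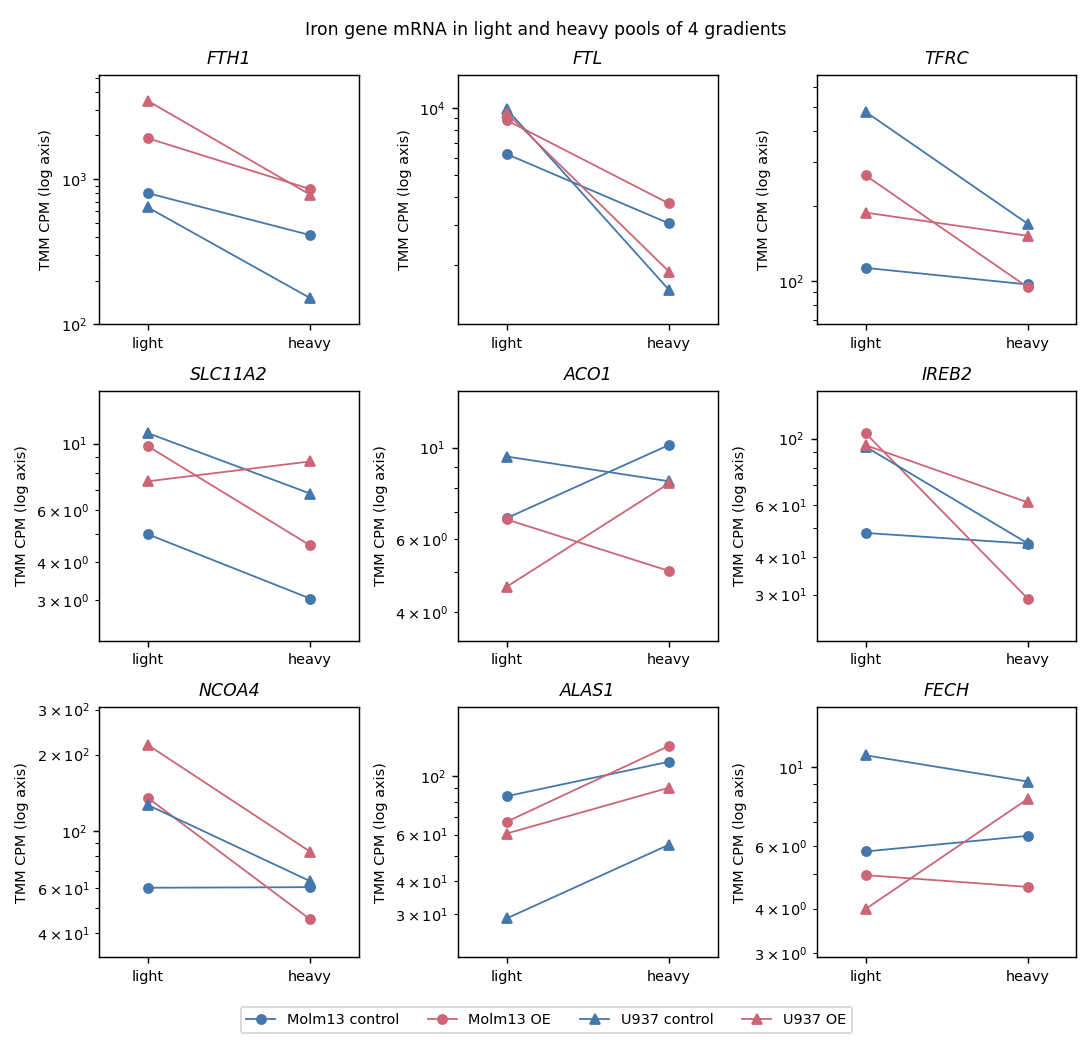
Level of each of the 9 tested iron genes, in CPM with TMM scaling on a log axis, in the light and heavy pools; each point is 1 library, lines join the pools of a gradient, colour gives the genotype label and shape the line label. FTL lies at 1551 to 9850 CPM and FTH1 at 152 to 3455 CPM, and FTH1 is higher in the OE library of every matched pair.

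Ferritin mRNA was more abundant, relative to other mRNAs, in the light pools. Since each library is scaled to its own total, a lower level in the heavy pool and a higher level of other mRNAs there cannot be told apart. FTL, the chain that aids mineral formation in the ferritin shell, was measured in the light pools at 6220 (Molm13 control), 8793 (Molm13 OE), 9850 (U937 control) and 9474 CPM (U937 OE). In the heavy pools it was measured at 3060, 3752, 1551 and 1870 CPM in the same order. Every heavy library lay below every light one, an order held by 9.81% of tested genes; no member had every heavy library above every light one, an order held by 9.12%. FTL was 3.54-fold lower in the heavy pool (log2 difference -1.82, SE 0.43, edgeR adjusted p = 0.00783).

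FTH1, the ferroxidase chain, was measured in the light pools at 800 (Molm13 control), 1911 (Molm13 OE), 638 (U937 control) and 3455 CPM (U937 OE), and in the heavy pools at 412, 855, 152 and 781 CPM. The heavy library was the lower of the pair in each gradient, but the OE heavy libraries overlapped the control light ones. FTH1 was 2.98-fold lower in the heavy pool (log2 difference -1.58, SE 0.39, edgeR adjusted p = 0.0103). Among all tested genes 6.97% had a lower log2 difference than FTL, and 9.56% a lower one than FTH1.

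Both ferritin chains differed more between pools under the U937 label. The heavy minus light difference of FTL was -1.02 and -1.23 in the Molm13 control and OE gradients, and -2.67 and -2.34 in the U937 ones. For FTH1 it was -0.96 and -1.16 against -2.07 and -2.14. A term for this difference between line labels, added after the data were seen, was 1.38 for FTL (SE 0.70, unadjusted p = 0.0725, edgeR adjusted p = 1) and 1.05 for FTH1 (adjusted p = 1), and it called 0 of 24289 genes (0%; 309 at an unadjusted p under 0.05). The chains thus were not shown to differ between lines in this respect.

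Over the 9 tested iron genes, 4 passed the threshold (an adjusted p under 0.05) between pools, all 4 lower in the heavy pool. Of all tested genes 28.6% passed, 12.8% as lower and 15.8% as higher. The others that fell were NCOA4 and IREB2. The heavy library was lower in 4 of 4 gradients for FTH1, FTL, TFRC and IREB2, an order seen in 22% of tested genes. The call of FTL was lost without the U937 OE heavy library (adjusted p = 0.0954). That of FTH1 was lost without the Molm13 OE heavy (0.0548), U937 OE heavy (0.0667) or U937 OE light library (0.0589). Without the Molm13 control light library FTL differed by -2.13 and FTH1 by -1.52.

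NCOA4, the receptor that carries ferritin to the lysosome for iron release, was measured in the light pools at 60.2 (Molm13 control), 135 (Molm13 OE), 127 (U937 control) and 218 CPM (U937 OE). Its heavy pools held 60.5, 45.3, 63.9 and 83.3 CPM. The pools were level in the Molm13 control gradient and apart in the other gradients, and the ranges overlapped through the Molm13 control light library. The difference was -0.98 (SE 0.26, edgeR adjusted p = 0.0149). It was lost without the Molm13 OE heavy (0.112), Molm13 OE light (0.0576), U937 OE heavy (0.0825) or U937 control heavy library (0.0809).

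IREB2, whose product is the iron regulatory protein controlled by degradation, was measured in the light pools at 48.3, 104, 94.0 and 95.1 CPM and in the heavy pools at 44.4, 29.1, 44.5 and 61.1 CPM, in the same order. Here too only the Molm13 control gradient was nearly level. The difference was -0.92 (SE 0.27, edgeR adjusted p = 0.0241), and the call was lost without the Molm13 OE heavy (0.186), Molm13 OE light (0.155) or U937 control heavy library (0.0966). ACO1, which encodes the other iron regulatory protein, was low in all libraries, at 4.604 to 9.52 CPM in the light and 5.03 to 10.2 CPM in the heavy pools. Its difference was 0.20 (edgeR adjusted p = 0.610), higher in the heavy library of 2 gradients and lower in the other 2.

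TFRC, which takes up iron bound to transferrin, was measured in the light pools at 113 (Molm13 control), 265 (Molm13 OE), 476 (U937 control) and 188 CPM (U937 OE). The heavy pools held 96.9, 94.4, 170 and 152 CPM. The heavy libraries thus lay close together, while the light ones ran from near the heavy level to well above it. The heavy minus light difference was -1.02 (SE 0.36, edgeR adjusted p = 0.0504) and did not pass the threshold. By gradient it was -0.22, -1.49, -1.49 and -0.31. The call turned on the setting: TFRC passed with DESeq2 (adjusted p = 0.0103) and without the Molm13 control light library (-1.30, edgeR adjusted p = 3.6e-05) or the U937 OE light library (-1.30, 0.0138). Without the Molm13 OE light or the U937 control light library the difference was -0.46 and -0.45.

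SLC11A2, the importer that moves ferrous iron across the plasma and endosomal membranes, was measured at 4.97 to 10.8 CPM in the light pools and 3.03 to 8.72 CPM in the heavy ones. Its difference of -0.61 did not pass (SE 0.30, edgeR adjusted p = 0.139); the U937 OE gradient went the other way, by 0.22. Without 1 library it ran from -0.92 to -0.19, and it passed without the Molm13 control light (-0.69, 0.0491) or the U937 OE light library (-0.92, 0.0265). SLC40A1, the only known cellular iron exporter, had 16 counts in the U937 control light library (exact Poisson 95% interval 9.15 to 25.98), 2 in the U937 OE heavy library and 0 in the other 6. Taken one-sided, a count of 0 allows up to 3 counts, which is 0.0318 to 0.127 CPM over those libraries; the exact interval used for the 16 counts would reach 3.69. Its 5′ element is printed above for its place in the pathway, and the U937 control gradient is the only one in which its pools differed by more than counting error (16 counts in the light and 0 in the heavy library). In the other gradients a difference was not detectable at this depth. Intervals and limits of this kind cover counting error only, since the reads carry no molecular identifiers.

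The haem enzymes did not follow ferritin. ALAS1, the first and rate-limiting enzyme of haem synthesis outside red cells, was measured in the light pools at 83.9 (Molm13 control), 67.2 (Molm13 OE), 28.96 (U937 control) and 60.6 CPM (U937 OE), and in the heavy pools at 113, 130, 55.0 and 90.3 CPM. It was higher in the heavy library of 4 of 4 gradients, as were 20.9% of tested genes. The difference of 0.69 did not pass (SE 0.27, edgeR adjusted p = 0.0766), but passed without the Molm13 control light (0.99, 0.00276) or the U937 OE light library (0.96, 0.046). FECH, which inserts iron into protoporphyrin, was measured at 3.99 to 10.8 CPM in the light and 4.61 to 9.13 CPM in the heavy pools, with a difference of 0.18 (edgeR adjusted p = 0.654).

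**Figure D2:**
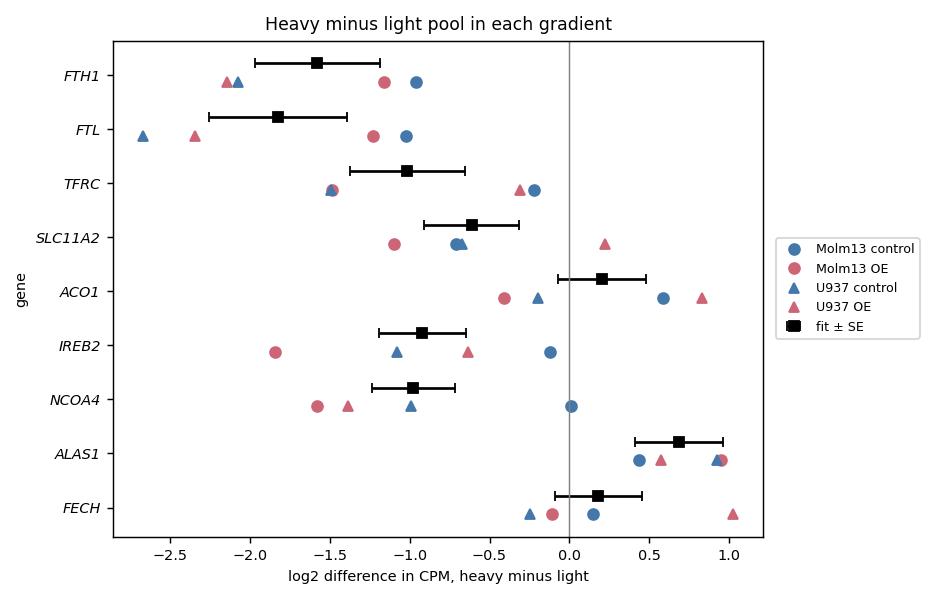
Heavy minus light difference on the log2 scale for the 9 tested iron genes: coloured points are the 4 gradients, and black squares with bars are the fitted value and its standard error. FTL (-1.82) and FTH1 (-1.58) lie lowest, ALAS1 (0.69) highest, and the gradient values of TFRC run from -1.49 to -0.22.

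The counting of FTH1 has a limit. BEST1, a chloride channel gene on the opposite strand, shares 1267 of the 2030 exonic bases of FTH1 (62.4%), and the library kit does not mark strand. BEST1 held 89% to 92.9% as many counts as FTH1 in every library, so their counts cannot be told apart; no other member shares exonic bases with another gene. Processed copies of ferritin in the genome drew few counts. The 25 FTH1 pseudogenes together held 0.429% to 0.765% as many counts as FTH1, and the 16 FTL pseudogenes 0.280% to 0.354% as many as FTL. FTLP3 (mean 16.5 CPM) differed between pools by -1.70 (edgeR adjusted p = 0.00229) and FTH1P8 (mean 1.18 CPM) by -1.74 (0.0111), values that are uncertain because reads of near-identical copies can be split.

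The question put by the genotype labels is whether the level of these mRNAs, or their spread over the gradient, differs in OGFOD1 OE cells. FTH1 alone among the 9 tested iron genes passed the threshold when both pools were compared together. Against 800 and 638 CPM in the control light libraries, OE light libraries held 1911 (Molm13) and 3455 CPM (U937). Against 412 and 152 CPM in the control heavy libraries, OE heavy libraries held 855 and 781 CPM. The OE library was the higher in 4 of 4 matched pairs, an order seen in 11% of tested genes.

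The fitted FTH1 difference was 1.77 (3.41-fold, SE 0.40, edgeR adjusted p = 0.0312). Of all tested genes 4.37% passed in this comparison, 2.01% as higher and 2.36% as lower. As group means, FTH1 was 719 ± 115 CPM (SD, n = 2) in control light and 2683 ± 1091 CPM in OE light, and 282 ± 184 CPM in control heavy and 818 ± 52.0 CPM in OE heavy. By pair the log2 difference was 1.26 (light) and 1.05 (heavy) under the Molm13 label, and 2.44 and 2.36 under the U937 label. The difference between line labels was -1.25 (SE 0.82, edgeR adjusted p = 1) in a term added after the data were seen, which called 0.132% of genes. The call for FTH1 was lost without the Molm13 OE heavy (0.0906), U937 OE heavy (0.164), U937 OE light (0.101) or U937 control heavy library (0.113), and kept without the Molm13 control light library (1.79, adjusted p = 1.03e-05). When the pools of a gradient were added together, which leaves 4 gradients as the units, it was 1.84 with an edgeR adjusted p of 0.102. In that fit 0 of 25667 tested genes passed.

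FTL did not move with FTH1. It differed between genotype labels by 0.22 over both pools (SE 0.41, edgeR adjusted p = 0.798), with pair values of 0.50 and 0.29 under the Molm13 label and -0.056 and 0.27 under the U937 label. The ratio of their mRNAs was therefore taken in each library. Lengths are unions of all annotated exons (2030 bases for FTH1, 878 for FTL). The size of the share thus depends on the annotation, and only its differences between libraries are read. FTH1 per kb as a share of FTL per kb was 5.57% and 5.82% in the Molm13 control light and heavy libraries, and 9.40% and 9.85% in the Molm13 OE ones. It was 2.80% and 4.23% in the U937 control libraries and 15.8% and 18.1% in the U937 OE ones. All OE libraries lay above all control libraries, and the pools of a gradient differed less than the genotype labels. FTH1 and BEST1 counts cannot be told apart in this ratio either.

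**Figure D3:**
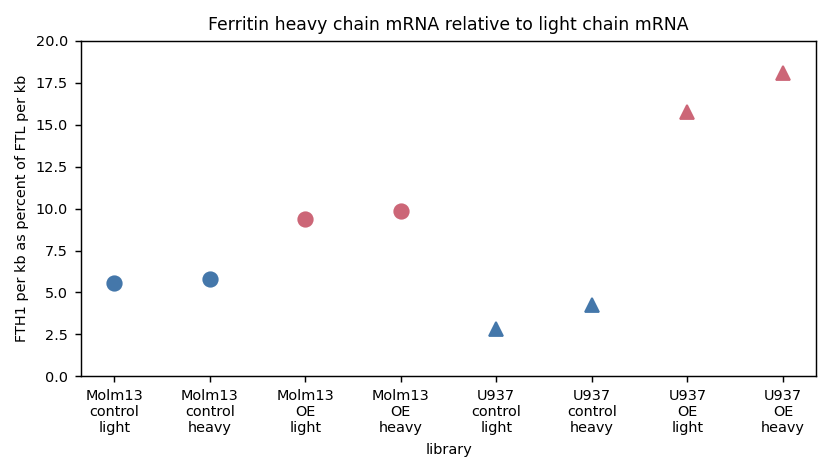
FTH1 per kb of exon as a percentage of FTL per kb of exon, for each of the 8 libraries in the order of line label, genotype label and pool; each point is 1 library. The control libraries lie at 2.80% to 5.82% and the OE libraries at 9.40% to 18.1%.

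The other iron genes did not pass between genotype labels over both pools. NCOA4 differed by 0.46 (edgeR adjusted p = 0.324), ALAS1 by 0.41 (0.413), SLC11A2 by 0.39 (0.482) and IREB2 by 0.26 (0.628). ACO1 differed by -0.50 (0.309) and FECH by -0.55 (0.256), and both were lower in 4 of 4 matched pairs, as were 14.4% of tested genes. The ACO1 pairs were uneven: -0.011 and -1.01 in the light and heavy pools under the Molm13 label, and -1.04 and -0.017 under the U937 label. FECH gave -0.22 and -0.48, then -1.43 and -0.16.

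TFRC, the mRNA with elements at the other end, differed by -0.082 (edgeR adjusted p = 0.925). Its light pools went in opposite directions by line label, 1.23 higher in OE under Molm13 and -1.34 under U937, while its heavy pools differed by -0.037 and -0.16. The difference between line labels over both pools was 1.35 (edgeR adjusted p = 0.986). With n = 2, the control light mean was 295 ± 257 CPM (SD) and the OE light mean 226 ± 54.4 CPM. The heavy means were 133 ± 51.4 CPM in control and 123 ± 40.6 CPM in OE.

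**Figure D4:**
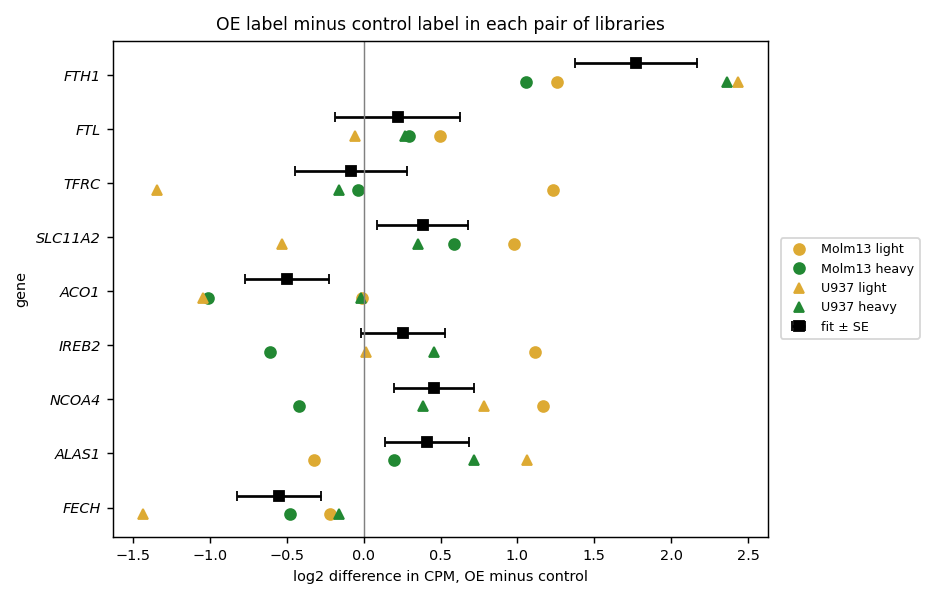
OE minus control difference on the log2 scale for the 9 tested iron genes: coloured points are the 4 matched pairs of line label and pool, and black squares with bars are the fitted value over both pools and its standard error. All 4 points of FTH1 lie between 1.05 and 2.44, while those of TFRC run from -1.34 to 1.23.

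Within a single pool no iron gene passed. In the heavy pool FTH1 differed by 1.59 (SE 0.55, edgeR adjusted p = 0.205), where 0.00412% of all genes passed (1 gene; 3670 at an unadjusted p under 0.05; DESeq2 called 994). In the light pool it differed by 1.95 (SE 0.56, edgeR adjusted p = 0.165), where 0% passed (3604 at an unadjusted p under 0.05; DESeq2 called 930). These counts were unstable. Without either control light library edgeR called many more genes in both pools, and FTH1 then passed in both. Without either OE light library the heavy count also rose. Each of these fits leaves 1 library in a group, so their counts are left aside here. With all libraries, edgeR without the filter called 1039 genes in the heavy and 560 in the light pool, and limma voom 102 and 0. Over the fits that left out 1 library FTH1 differed by 0.85 to 2.50 in the heavy and 1.09 to 2.57 in the light pool. DESeq2 called FTH1 and no other iron gene in each pool. NCOA4 was 0.96 higher in the light pools labelled OE (SE 0.37, edgeR adjusted p = 0.258) and FECH differed by -0.79 there (0.363).

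The change of the heavy minus light difference with the OE label, which asks whether an mRNA shifted along the gradient, was called for 0% of genes, iron genes included (1431 at an unadjusted p under 0.05; DESeq2 called 6). Without the U937 control light library edgeR called 1371 genes, none of them a member, and without the filter on low counts 74. FTH1 gave -0.36, with gradients of nearly equal difference within each line label. NCOA4 gave -1.01 (SE 0.52, edgeR adjusted p = 0.791), IREB2 -0.64 and FECH 0.49. Without the Molm13 control light library these were -0.74, -0.29 and 0.78, and TFRC gave 0.76. By line label IREB2 had opposite signs, -1.72 under Molm13 and 0.44 under U937. Between line labels 0% of genes passed as well, and no member had all libraries of one label above (1.12% of tested genes) or below (1.28%) all of the other; ALAS1 was 0.81 higher under Molm13 (edgeR adjusted p = 0.333), and TFRC differed by -0.77 (0.438).

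Other genes of iron and haem handling were followed through 6 lists. Between pools, the haem breakdown list moved most: 3 of its 5 tested genes rose in the heavy pool and none fell, with a median of 1.74 against -0.037 over all tested genes, of which 15.8% rose and 12.8% fell; the counts of the lists below stand against the same shares. BLVRA, a biliverdin reductase, rose by 2.04 (edgeR adjusted p = 0.000832), from 2.64 to 10.1 CPM in the light pools to 10.8 to 20.7 CPM in the heavy ones. HMOX2, the constitutive haem oxygenase, rose by 1.91 (0.000848) and BLVRB, the other reductase, by 1.74 (0.0122; 2.80 without the Molm13 control light library). These 3 calls held without any 1 of the 8 libraries.

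In the iron-sulphur cluster list 8 of 26 genes rose and 6 fell in the heavy pool (15.8% and 12.8% over all genes), with a median of 0.52. BOLA3 (-2.32, edgeR adjusted p = 0.000519), ISCA1 (-1.98, 0.000598) and CIAO2A (-2.30, 0.000713), which take part in late or cytosolic steps of cluster assembly and delivery, fell in the heavy pool. CIAO2A was measured at 393 to 819 CPM in the light and 98.2 to 130 CPM in the heavy pools. Its heavy libraries all lay below its light ones, as for 9.81% of tested genes. These calls too held without any 1 library. More genes of the list passed without the Molm13 control light or the Molm13 control heavy library. Fewer passed without either OE light, either OE heavy or the U937 control heavy library. The number passing over all tested genes moved the same way, except that it fell without the Molm13 control heavy library. It also fell without the U937 control light library, which left the number for the list unchanged. Over the fits that left out 1 library the list median ran from 0.33 to 0.63.

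In the haem synthesis and transport list 7 of 15 genes rose and 2 fell (15.8% and 12.8% over all genes), with a median of 0.28. UROD (1.11, edgeR adjusted p = 0.00679) and UROS (-1.09, 0.00586), successive enzymes of the pathway, moved in opposite directions, and the haem-binding protein PGRMC1 rose by 1.13 (0.00909). Fewer genes of the list rose whichever library was left out. Fewer of all tested genes rose in these fits as well, except without the Molm13 control light library, where more rose. Over the fits that left out 1 library the list median ran from 0.19 to 0.41. Calls were lost for UROD without the Molm13 OE heavy, PGRMC1 without the U937 control heavy and UROS without the U937 OE heavy library.

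Of 13 tested uptake and efflux genes 2 rose and 1 fell (median -0.19). SLC25A37, the mitochondrial iron importer mitoferrin-1, fell by 1.24 (edgeR adjusted p = 0.00351), from 69.6 to 117 CPM in the light pools to 27.6 to 50.5 CPM in the heavy ones, and kept its call without any 1 library. The ferrireductase STEAP3 rose by 0.80 (0.0241) and the lysosomal channel MCOLN1 by 0.79 (0.0333). Of 11 genes for ferritin loading and control of the iron regulatory proteins, 1 rose and 2 fell (median 0.31). SKP1, a subunit of the ligase that degrades IRP2, rose by 1.33 (0.0073). FBXL5, the iron-sensing subunit of that ligase, fell by 0.77 (0.0263), and the iron chaperone PCBP2 fell by 0.94 (0.0225). The calls of STEAP3, MCOLN1, PCBP2 and FBXL5 were lost without the Molm13 OE heavy, U937 control heavy or U937 OE heavy library, and some of them without the Molm13 control heavy, Molm13 OE light, U937 control light or U937 OE light library. Of the 4 tested genes among other mRNAs with a described element, 0 passed (0 at an unadjusted p under 0.05; edgeR); CDC14A differed by -0.55 and PFN2, listed below 1 CPM in every library, by -1.26.

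**Figure D5:**
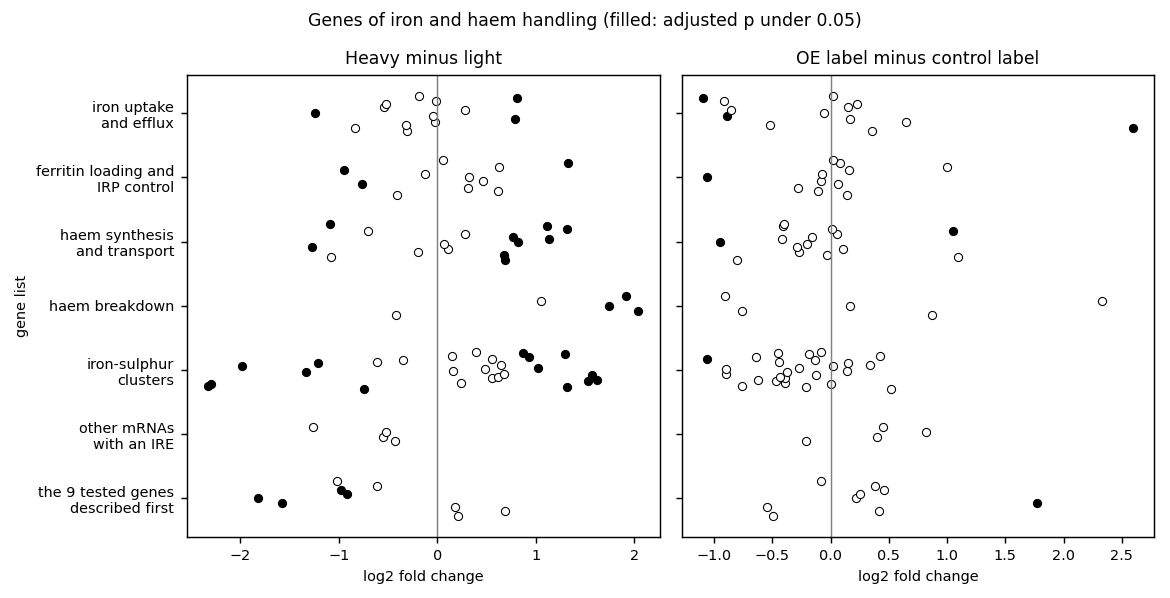
Fitted log2 differences of the genes in each iron list, and in the lowest row of the 9 tested members, between pools (left) and between genotype labels (right), with filled points for genes that passed the threshold. Haem breakdown genes lie highest between pools (median 1.74), and CYBRD1 (2.60) lies highest among the called genes between genotype labels.

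Between genotype labels the largest called change in the lists was in CYBRD1, a ferric reductase of the plasma membrane. It was measured at 1.08, 0.404, 2.65 and 2.03 CPM in the control libraries (Molm13 light, Molm13 heavy, U937 light, U937 heavy) and at 7.82, 3.59, 13.5 and 9.22 CPM in the OE ones. The OE library was thus the higher in 4 of 4 matched pairs, as for 11% of tested genes. CYBRD1 rose by 2.60 (SE 0.31, edgeR adjusted p = 0.00982) and kept its call without any 1 of the 8 libraries, with an adjusted p of at most 0.0449. With the pools of a gradient added together it was 2.64 and did not pass (edgeR adjusted p = 0.102).

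In all, the 6 lists held 2 genes that rose and 5 that fell with the OE label, where 2.01% of all tested genes rose and 2.36% fell. In the uptake list (13 tested, median 0.02) CYBRD1 rose, STEAP3 fell by 1.10 (edgeR adjusted p = 0.0284) and the mitochondrial importer SLC25A28 fell by 0.89 (0.0438). In haem synthesis and transport (15 tested, median -0.20) the haem transporter SLC48A1 rose by 1.05 (0.0408). HERC2, a ubiquitin ligase that acts on NCOA4, fell by 1.06 (0.035) as 1 of 11 genes (median 0.02), and the cytosolic iron-sulphur reductase NDOR1 fell by 1.06 (0.0344) as 1 of 26 (median -0.32). The median over all tested genes was -0.053.

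Apart from CYBRD1, these calls rested on few libraries. All 6 were lost without the Molm13 control heavy, Molm13 OE heavy, U937 control heavy or U937 OE heavy library (adjusted p 0.0524 to 0.310), 5 without the U937 OE light and 3 without the Molm13 OE light library. None was lost without either control light library. With the pools of a gradient added together no list gene named here passed in edgeR (adjusted p = 0.146 for NDOR1, 0.15 for STEAP3, 0.155 for HERC2, 0.166 for SLC48A1 and 0.186 for SLC25A28). Nor did any of the 25667 genes tested in that fit.

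No haem breakdown gene passed with all libraries (4 of 5 at an unadjusted p under 0.05 in edgeR, against 5384 of all 24289 tested genes). Calls appeared in this list without the Molm13 control light, Molm13 OE light, Molm13 OE heavy or U937 control light library. Their number is left aside here, as each such fit leaves 1 library in a group. HMOX1, the inducible haem oxygenase, was at 7.84, 7.96, 0.373 and 1.26 CPM in the control libraries (Molm13 light, Molm13 heavy, U937 light, U937 heavy) and at 4.99, 16.2, 10.4 and 38.0 CPM in the OE ones. Its difference of 2.33 (SE 0.82, edgeR adjusted p = 0.117) lay mostly under the U937 label. The haem-binding repressor BACH1 differed by 0.87 (0.0586) and HMOX2 by -0.91 (0.0714). In the other mRNAs with an element 0 of 4 passed, with EPAS1 at 0.82 (0.153). Within either pool, and in its change between pools, no gene of the 6 lists passed in edgeR.

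The genes whose level over the 8 libraries most resembled a member were found among 8366 genes with a symbol and a mean of at least 10 CPM. For FTH1 they were BEST1, which shares its exons (Pearson r 1.00), CCM2 (0.988) and ZFP36 (0.976). For FTL they were FTLP3 (0.993), LINC00526 (0.981) and SMIM29 (0.974), and for TFRC TNKS2 (0.985), GMFB (0.984) and FZD3 (0.983). The libraries share gradients and depth in pairs, so these values only describe the likeness.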

How the data were processed

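The authors deposited raw counts (reads per Ensembl gene, as whole numbers) in 1 table for the 8 libraries. The submitters' processing notes name GRCh38 and the tools cutadapt, STAR and featureCounts; no version, annotation release or strand setting is named in the sources used here. Every column matched a sample by name. The members and gene lists were chosen with earlier results of these data known.

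Counts were tested in R 4.3.3 with the quasi-likelihood method of edgeR 4.0.16, after filterByExpr and TMM scaling. Group and line label were the terms, leaving 3 residual degrees of freedom, and edgeR's biological coefficient of variation came to 0.359. P-values were adjusted by Benjamini-Hochberg over 24289 genes, with a threshold of 0.05. Because all mRNAs of a pool are scaled to a common total, a heavy minus light difference is relative to the other mRNAs of that pool. Per-library log2 differences used a prior count of 2. Group errors are SDs over 2 libraries, and fitted errors are standard errors taken from the F statistic. The line label is the replicate and pairs the libraries by design; deviations from group means correlated between groups at 0.0169 to 0.338.

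Named genes were the members, OGFOD1, up to 3 genes per list and comparison by smallest p, the 2 ferritin pseudogenes of highest mean count, and the 3 genes most like each of FTH1, FTL and TFRC. HMOX1 was named under that rule, and some genes it takes are not reported here. Alternatives were DESeq2 1.42.0, limma voom (limma 3.58.1), other scalings, no filter, other blocks and leaving out each library. Fits with the gradient as a random block, without 37 mitochondrially encoded genes and with FTH1 copies summed were added after the data were seen, as were the terms for line label by pool and by genotype. The scripts were tested on simulated counts. Gene positions, UTRs and lengths (the union of all annotated exons of a gene) came from GENCODE 29.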

Additional observations from a re-analysis of the deposited data

How the results depend on the processing

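The 5 calls of iron genes (FTH1, FTL, NCOA4 and IREB2 between pools, FTH1 between genotype labels) kept their direction under every alternative run. Without any 1 library, called iron genes numbered 1 to 7 between pools (4 with all), 0 to 1 between genotype labels over both pools, 0 to 1 in the heavy pool and 0 to 1 in the light pool. The calls over all tested genes changed as well when 1 library was left out, and each such fit leaves 1 library in a group. With all libraries, DESeq2 called 1 iron gene in the heavy and 1 in the light pool, and fitting without the filter on low counts called 1 in the light pool. With the filter edgeR called none in either pool. Without the replicate block for line label, 0 iron genes passed between genotype labels (FTH1 edgeR adjusted p = 0.0647), where 116 of 24289 tested genes passed. With the counts of each gradient summed, 0 of 25667 tested genes passed between genotype labels, iron genes included. Without the block IREB2 also missed the threshold between pools (0.0539). A replicate block by gradient changed no other call.

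Values that changed sign were uncalled. In the change of heavy minus light with the OE label they were ACO1 (-0.0495 with DESeq2, -0.0493 with its size factors in edgeR, -0.15 with upper-quartile scaling, -0.11 without the filter, -0.12 without mitochondrially encoded genes), FTL (-0.00903, -0.0189 and -0.0039 in the last 3 of these), ALAS1 (-0.0838, -0.0175 and -0.039), SLC11A2 (-0.00596, upper-quartile) and TFRC (0.27, no replicate block). Upper-quartile scaling also gave FECH -0.0071 between pools and TFRC 0.0694 in the light pool. It moved the median of all genes between pools from -0.037 to -0.22, with 2846 of 7165 calls higher against 3833 of 6937, and between genotype labels 752 of 1233 against 487 of 1061. Without the replicate block IREB2 (0.0219) and NCOA4 (0.049) turned in the heavy pool, and TFRC was 0.0826 over both pools with summed gradients. The cause was not tested.

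Leaving out 1 library turned these further values, given as lowest to highest: FTL -0.0488 to 0.58 over both pools, -0.25 to 0.80 in the heavy pool, -0.38 to 0.89 in the light pool and -0.62 to 0.66 for the change between pools. TFRC ran from -0.53 to 0.37, and -0.97 to 0.85 (light) and -0.96 to 0.88 (change). ACO1 ran from -0.00786 to 0.45 between pools, -0.41 to 0.45 (change) and -0.30 to 0.11 (line label). FECH ran from -0.0428 to 0.49 between pools and -0.0167 to 1.05 (change). In the heavy pool IREB2 ran from -0.49 to 0.32 and NCOA4 from -0.50 to 0.38. SLC11A2 ran from -0.0259 to 0.71 over both pools, -0.52 to 0.95 (light) and -0.48 to 0.99 (change). ALAS1 ran from -0.12 to 0.87 (light) and -0.43 to 0.58 (change), and FTH1 from -1.06 to 0.63 (change) and -0.14 to 0.62 (line label).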
